A study of Mus musculus with 8 samples.

Results

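The 10 genes described here encode fibre-type isoforms of skeletal muscle, and they were taken by gene symbol from a deposited table of 18901 genes. They are the myosin heavy chains Myh1, Myh2, Myh3, Myh4, Myh7 and Myh8, the troponin I subunits Tnni1 and Tnni2, and the calcium pumps Atp2a1 and Atp2a2. All 10 rows were found, and all 10 passed the filter of at least 10 counts over the 8 mice. Cheek tissue was collected from 4 mice labelled as tbx20 k14 conditional knockout (TBX20fl/fl;K14-Cre) and 4 mice labelled tbx20 flox/flox (TBX20fl/fl littermates, the controls). All were 7-week-old females on a C57BL/6 background and carried the floxed Tbx20 allele, with exons 2 and 3 flanked by loxP sites. The knockout mice also carried Cre under the keratin 14 promoter, which is active in basal keratinocytes and not in muscle fibres. Every mouse had received 10 µg of BNP, an itch-inducing peptide, by intradermal injection into the left cheek and vehicle into the right cheek, and the tissue was cut 5 h after a 30 min behavioural recording. The study sequenced the cheek that received BNP, and the labels name the tissue as skin.

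Muscle fibres are classed by the heavy chain of the myosin motor that they carry. Myh7 marks slow type I fibres, Myh2 fast IIa fibres, Myh1 fast IIx fibres and Myh4 fast IIb fibres, while Myh3 and Myh8 are the embryonic and perinatal chains that are used before birth and again in regenerating fibres. Each fibre type adds its own regulatory subunits and pumps: Tnni2 and Tnni1 are the fast and slow inhibitory subunits of troponin, and Atp2a1 (SERCA1) and Atp2a2 (SERCA2) are the fast and slow pumps that return calcium to the sarcoplasmic reticulum. Atp2a2 also has a splice form used by most other cells, keratinocytes included, and a value per gene does not separate these forms. The face is moved by thin muscles beneath the skin, and a full-thickness cut of the cheek can take them along.

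In GRCm38, the build of the deposited coordinates, 5 of the heavy chain genes lie side by side on chromosome 11. In order they are Myh3 (chr11:67078273-67102291), Myh2 (chr11:67171027-67199234), Myh1 (chr11:67200102-67224577), Myh4 (chr11:67237812-67260447) and Myh8 (chr11:67277124-67308634). Myh7 lies on chromosome 14 (chr14:54970684-54994626), and Tnni1 on chromosome 1 (chr1:135783033-135810989). Tnni2 (chr7:142441816-142444410) and Atp2a1 (chr7:126445858-126463103) lie on chromosome 7, and Atp2a2 on chromosome 5 (chr5:122453513-122502225).

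The heavy chains are close relatives in sequence, which matters for reads of 50 bases. The same 60 bases near the start of each coding sequence, read from the GENCODE M21 transcripts, are shown to make this visible. Capitals mark bases that differ from Myh4.
Myh4: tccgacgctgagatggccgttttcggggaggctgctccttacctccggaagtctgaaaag
Myh1: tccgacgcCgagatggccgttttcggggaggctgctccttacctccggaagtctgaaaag
Myh2: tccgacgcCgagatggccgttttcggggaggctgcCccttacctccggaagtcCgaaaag
Myh8: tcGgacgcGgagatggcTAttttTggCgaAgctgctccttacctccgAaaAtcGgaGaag
Myh3: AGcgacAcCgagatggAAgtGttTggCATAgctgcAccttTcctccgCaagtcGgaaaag
Myh7: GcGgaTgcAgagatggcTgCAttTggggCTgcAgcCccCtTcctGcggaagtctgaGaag
The Myh4 window lies in its exon 2 at chr11:67240630-67240689 on the plus strand, and those of Myh1 (chr11:67201888-67201947), Myh2 (chr11:67173122-67173181), Myh8 (chr11:67278869-67278928) and Myh3 (chr11:67080005-67080064) lie in exon 3 of their genes, also on the plus strand. The Myh7 window lies in exon 4 at chr14:54992811-54992870 on the minus strand. In these 60 bases Myh1 differs from Myh4 at 1 position, Myh2 at 3, Myh8 at 11, and Myh3 and Myh7 at 16 each.

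Over the whole coding sequence, 90.2% of aligned bases were identical between Myh1 and Myh4, 88.2% between Myh2 and Myh4, 88.0% between Myh8 and Myh4, 80.3% between Myh3 and Myh4, and 77.5% between Myh7 and Myh4. Of all stretches of 50 bases in the transcript, 26.7% of those in Myh1, 26.9% in Myh2, 18.9% in Myh4, 21.4% in Myh8 and 4.81% in Myh3 also occurred in another gene, mainly in a neighbouring heavy chain gene. For Myh7 the share was 22.6%, and all 1373 of these stretches were shared with Myh6, the cardiac alpha chain. The troponin I pair shared no such stretch, and the pumps shared 3.61% (Atp2a2) and 0.117% (Atp2a1) of theirs with other genes. Reads from shared stretches have to be divided between genes by the counting program. This adds uncertainty to the values of Myh1, Myh2, Myh4, Myh7 and Myh8 above all, and its size was not measured.

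The adult and perinatal chains at one end of the cluster were present at very unequal levels, so the 150 bases before the annotated start of these 4 neighbours are shown as well (RefSeq, GRCm38.p6, plus strand). Capitals mark matches on either strand to muscle motifs, namely MEF2, CArG, MCAT (CATTCC) and the E-box (CANNTG).
Myh2, chr11:67170877-67171026: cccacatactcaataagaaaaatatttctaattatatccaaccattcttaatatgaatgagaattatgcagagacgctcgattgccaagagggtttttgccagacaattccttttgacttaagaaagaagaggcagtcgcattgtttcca
Myh1, chr11:67199952-67200101: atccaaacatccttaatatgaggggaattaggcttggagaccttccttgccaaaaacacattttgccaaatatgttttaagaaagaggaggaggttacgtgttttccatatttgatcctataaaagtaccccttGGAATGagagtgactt
Myh4, chr11:67237662-67237811: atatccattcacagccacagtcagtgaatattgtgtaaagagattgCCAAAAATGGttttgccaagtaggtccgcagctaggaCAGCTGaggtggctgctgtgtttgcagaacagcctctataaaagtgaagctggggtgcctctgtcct
Myh8, chr11:67276974-67277123: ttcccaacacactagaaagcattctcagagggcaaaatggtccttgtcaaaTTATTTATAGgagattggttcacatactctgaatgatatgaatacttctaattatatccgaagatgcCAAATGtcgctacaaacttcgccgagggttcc
The Myh4 window held a CArG match and an E-box, the Myh1 window an MCAT match, the Myh8 window a MEF2 match and an E-box, and the Myh2 window none of the 4. Among 32851 promoter windows of the same length, 0.916% held the CArG motif, 1.67% MEF2, 7.59% MCAT and 47.7% an E-box. The TATA motif (TATAAA, either strand, in 7.57% of windows) lay 31 bases before the Myh4 start and 32 before the Myh1 start, and in the Myh8 window it overlapped the MEF2 match. A match describes these letters and is not evidence of a bound site. Promoter windows were found for 8 of the 10 genes.

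Library depth ranged from 16056282 to 19880654 estimated counts per mouse, so that 3 counts corresponded to 0.151 to 0.187 CPM (counts scaled to library size). Tbx20 itself was at 0 to 3.01 counts in every library and gave no check of the genotype labels in this tissue. Control 2 stood apart from the other 7 libraries. Its median Spearman correlation with them, over genes, was 0.936, against 0.978 to 0.990 for each of the others. Its long transcripts tended to be low and its short ones high, with exceptions given below. The values without it are given below for the results that it moved most.

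The cheek tissue held fast muscle RNA in every mouse. Levels are given as FPKM, read counts scaled by transcript length and library size, which can be compared between genes. By mean FPKM, Tnni2 ranked 36th, Atp2a1 72nd, Myh4 237th and Myh1 480th of the 18901 genes. The median over the 8 mice was 1671 for Tnni2, 1266.5 for Atp2a1, 402 for Myh4, 173 for Myh1, 47.4 for Atp2a2 and 19.8 for Myh2. It was 1.07 for Myh7, 0.425 for Myh8, 0.375 for Tnni1 and 0.0400 for Myh3. Each gene was above the next in this order in 8 of 8 mice, except that Myh8 exceeded Tnni1 in 5 of 8. Muscle genes of every fibre type were abundant too, with Acta1, skeletal actin, at 2261 to 4086 FPKM and Ckm, muscle creatine kinase, at 1395 to 2385. The epidermal keratin Krt14 was at 1075 to 1572 and the fat-cell hormone Adipoq at 275 to 399, so the tissue labelled skin contained epidermis, fat and skeletal muscle. In such bulk samples, fewer fibres of a type and less RNA per fibre cannot be told apart.

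Among the 6 heavy chains, Myh4 supplied most of the message. Its share of their summed FPKM was 59.4%, 66.8%, 63.5% and 62.2% in knockout mice 1 to 4 and 71.2%, 61.4%, 63.0% and 68.4% in control mice 1 to 4. Myh1 gave 36.9%, 28.6%, 33.6% and 33.6% in the knockout mice and 25.5%, 33.5%, 33.3% and 27.3% in the controls. Together with Myh2, at 2.48% to 4.20%, the adult fast chains made up 98.5% to 99.8% of the total. The proportions of IIb, IIx and IIa message were thus close from mouse to mouse although the absolute levels were not, and the groups overlapped for each chain. Each of the 3 fast chains has a transcript of about 6 kb, so their ratios within a library were not moved by its length effect. The ratio of Myh1 to Myh4 spanned 0.428 to 0.622 in the knockout group and 0.359 to 0.545 in the control group.

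**Figure D1:**
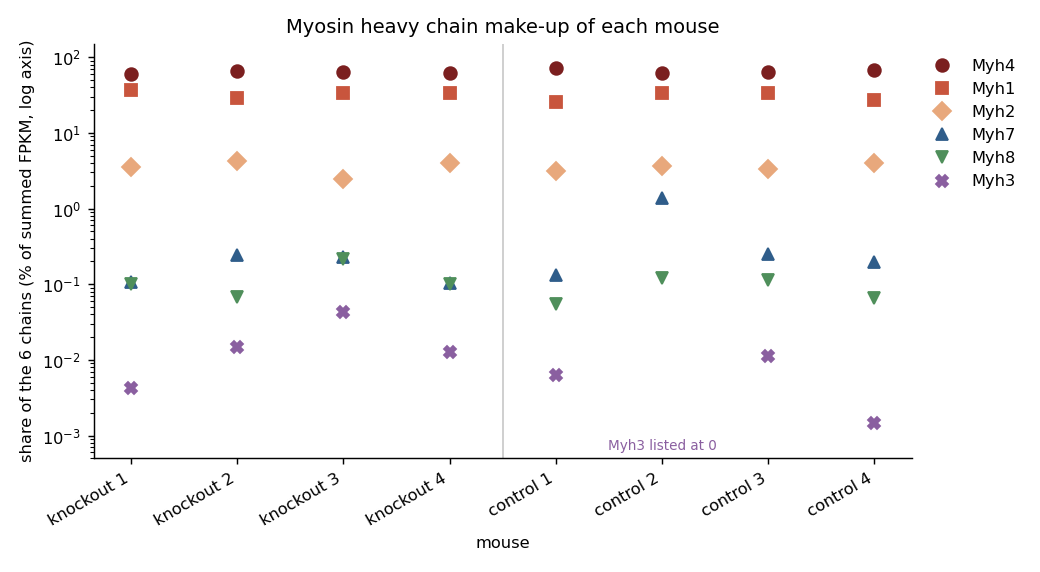
Share of each of 6 myosin heavy chains in their summed FPKM, in percent on a log axis, for each of the 8 mice, with 1 symbol per chain. Myh4 lies at 59.4% to 71.2% and Myh1 at 25.5% to 36.9% in every mouse, the Myh7 share of control 2 (1.37%) lies above all others, and Myh3 was listed at 0 in control 2.

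The slow chain Myh7 gave 0.107%, 0.246%, 0.226% and 0.103% of the total in the knockout mice and 0.132%, 1.37%, 0.248% and 0.197% in the controls. Control 2 alone exceeded 0.25%. The summed FPKM of the 3 fast chains was 406 to 973 times that of Myh7 in the knockout group, 402 to 756 times in controls 1, 3 and 4, and 72.1 times in control 2. The perinatal chain Myh8 contributed 0.0683% to 0.217% in the knockout group and 0.0544% to 0.120% in the controls. The embryonic chain Myh3 contributed at most 0.0423%, in knockout 3. The other fast and slow pairs also favoured the fast isoform. Fast Tnni2 was 872.5 to 12837 times slow Tnni1, and Atp2a1 was 21.8 to 38.9 times Atp2a2, with overlap between the groups in both ratios.

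The genotypes were then compared, all mice having received BNP. Cre was not directed to muscle fibres, although the Atp2a2 value can also include message from keratinocytes. None of the 10 genes passed an adjusted p of 0.05 when edgeR's quasi-likelihood p-values were adjusted by Benjamini-Hochberg over 17124 genes, and their adjusted p-values ran from 0.498 to 0.622. The background was the same, since 0 of all genes (0%) passed and the smallest adjusted p was 0.498. At an unadjusted p under 0.05 there were 2 of the 10 genes, Myh3 and Myh8, both higher in the knockout mice, against 2.45% of all genes called higher and 5.91% called lower, 1431 genes in all. With DESeq2, 10 genes (0.0584%) passed an adjusted p of 0.05 and none of them was among the 10 isoforms, whose smallest DESeq2 adjusted p was 0.317. Of the isoforms 4 (Myh1, Tnni2, Myh3 and Myh8) had an unadjusted DESeq2 p under 0.05, against 11.4% of all genes. Of the isoforms 8 had a fitted change above 0 and 2 below it, with a median log2 fold change of 0.46 against 0.03 over all genes, of which 52.5% were above 0. The isoform median was 0.25 without control 2 and 0.21 with the length trend described below removed, against 0.01 and 0.02 over all genes. For none of them did the deposited FPKM, given to 2 decimals, separate the 2 groups, whereas every knockout mouse lay above every control mouse in 5.45% of the 15968 genes whose mean FPKM was 0.1 or more. With 4 mice against 4 the smallest p that an exact permutation test can give is 0.0286.

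The labels number the mice 1 to 4 in each genotype, and same-numbered mice resembled each other weakly beyond their group, although no pairing of mice is described. With that number as a block, 4 isoforms had an unadjusted p under 0.05, all higher in the knockout mice (3.52% of all genes were called higher), namely Myh1, Myh2, Myh3 and Myh8. Their adjusted p-values were 0.405 each in the same edgeR fit, so that none passed over all genes. With the block and the length trend removed together, Myh1, Myh2 and Myh8 no longer had an unadjusted p under 0.05, and Tnni1 and Myh3 did (1.28 and 1.99 on the log2 scale, edgeR unadjusted p = 0.0482 and 0.0169), in a fit where 4.16% of all genes were called higher. In 6 of the 10 genes the knockout mouse exceeded its same-numbered control in 4 of 4 pairs, a pattern found in 22.2% of genes.

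Myh4, the fast IIb chain, was at 554, 313, 345 and 491 FPKM in knockout mice 1 to 4 and at 458, 107, 221 and 463 in control mice 1 to 4. In both groups the mice numbered 1 and 4 were high and those numbered 2 and 3 were low, and the ranges overlapped. The log2 fold change of knockout over control was 0.36 (SE 0.381, n = 4 and 4, edgeR unadjusted p = 0.366, adjusted p = 0.607). The exact permutation p of the FPKM difference was 0.343, two-sided. Without control 2 the fitted change was 0.12, the lowest when 1 mouse was left out at a time, without control 1 it was 0.58, the highest, and with the transcript-length trend removed from each library it was 0.08.

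Myh1, the fast IIx chain, showed the same order of mice, with 344, 134, 182 and 265 FPKM in the knockout group and 164, 58.5, 117 and 184.5 in the controls. Each knockout mouse was above its same-numbered control, but knockout 2 lay below controls 1 and 4. The log2 fold change was 0.72 (SE 0.349, edgeR unadjusted p = 0.0675, adjusted p = 0.498), and the exact permutation p of the FPKM difference was 0.143. With the replicate block the change was 0.69 with an SE of 0.178 (edgeR unadjusted p = 0.00698, adjusted p = 0.405). The unblocked change was 0.54 without control 2, 0.45 without knockout 1 and 0.39 with the length trend removed. Blocked and with the length trend removed it was 0.30 (edgeR unadjusted p = 0.235).

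Myh2, the fast IIa chain, was at 32.6, 19.7, 13.5 and 31.7 FPKM in the knockout mice and 19.9, 6.36, 11.7 and 27.0 in the controls, again highest in the mice numbered 1 and 4. Its log2 fold change was 0.49 (SE 0.390, edgeR unadjusted p = 0.236, adjusted p = 0.533). The blocked value was 0.53 (SE 0.202, edgeR unadjusted p = 0.0376, adjusted p = 0.405), and the unblocked value was 0.28 without control 2 and 0.80 without control 4. With the length trend removed it was 0.19 without the block and 0.13 with it (edgeR unadjusted p = 0.534 and 0.414).

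Atp2a1, the fast calcium pump, followed the fast chains across mice, at 1721, 1029, 1159 and 1596 FPKM in the knockout group and 1460, 569, 863 and 1374 in the controls. Its log2 fold change of 0.25 (SE 0.281, edgeR unadjusted p = 0.389, adjusted p = 0.622) had the largest p of the 10 genes, and it was 0.12 without control 2 and 0.11 without knockout 1. Tnni2, the fast troponin I, had the largest FPKM of the 10 genes and went the other way. It was at 1808, 1213, 1256 and 1673 FPKM in the knockout mice and 1631, 3351, 1887 and 1669 in the controls, with control 2 far above the rest. Its log2 fold change was -0.77 (SE 0.367, edgeR unadjusted p = 0.0633, adjusted p = 0.498). It moved to -0.26 without control 2 and to -0.08 with the length trend removed.

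**Figure D2:**
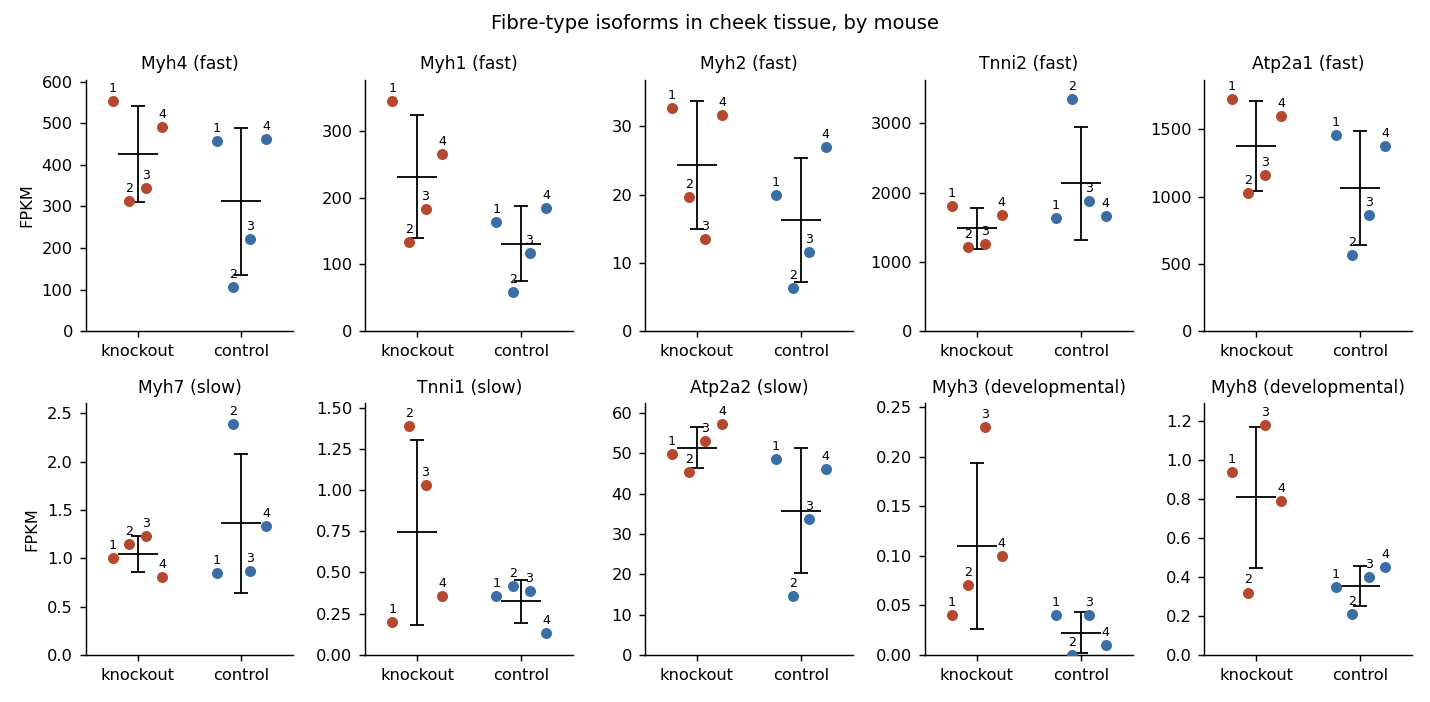
FPKM of the 10 isoform genes, 1 panel per gene on linear axes that start at 0, with 1 point per mouse labelled by its replicate number and the mean ± SD of each group of 4 drawn as a bar. The groups overlap in every panel, mice 1 and 4 of both groups stand above mice 2 and 3 for Myh4, Myh1, Myh2 and Atp2a1, and control 2 is the highest mouse for Tnni2 (3351) and the lowest for Myh4 (107).

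The position of control 2 followed transcript length. Against the median of the other 7 mice, it was at a log2 FPKM ratio of -2.09 for Myh4, -1.64 for Myh1, -1.65 for Myh2, -1.27 for Atp2a1 and -1.73 for Atp2a2, whose transcripts are 3.39 to 6.03 kb long by the ratio of count to FPKM. For Tnni2, of 0.675 kb, the ratio was 1.01. Among other skeletal muscle genes, control 2 was above all other mice for 10 of 19 genes under 2 kb and below none of them, and below all other mice for 7 of 8 genes of 4 kb or more. Myh7 was the exception among the isoforms, with a ratio of 1.26 at a transcript length like that of Myh4. The ratio of Tnni2 to Atp2a1, both fast-fibre genes, was 1.048 to 2.19 in 7 mice and 5.89 in control 2, and 1.21 to 2.09 over all 8 mice with the length trend removed.

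**Figure D3:**
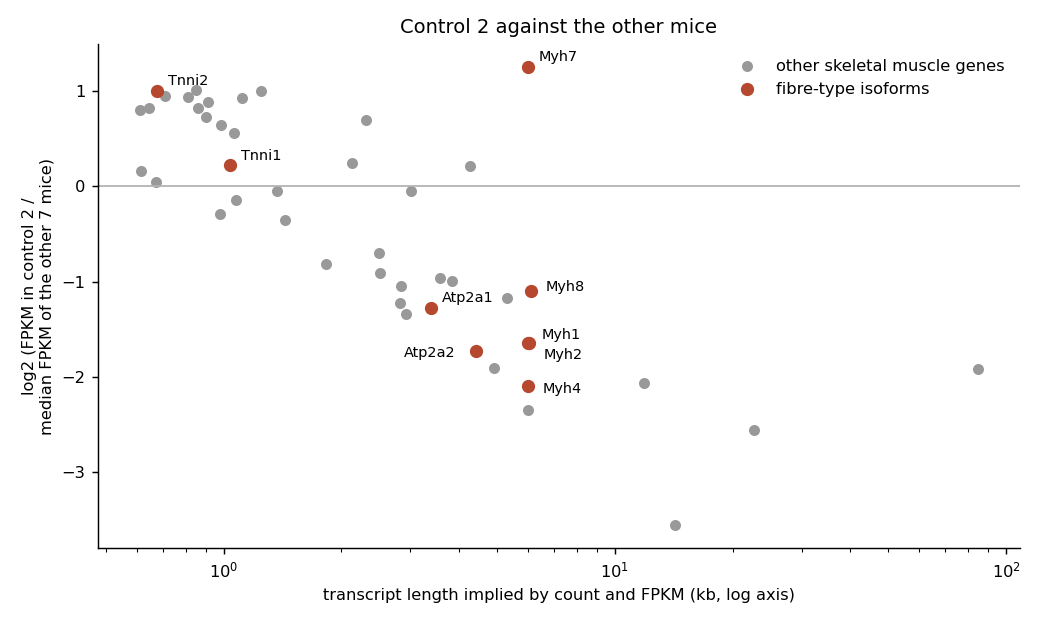
Log2 ratio of the FPKM in control 2 to the median FPKM of the other 7 mice (vertical axis) against transcript length in kb on a log axis, for the isoform genes (red) and other skeletal muscle genes (grey). Transcripts under 2 kb, such as Tnni2 (1.01), mostly lie above those of 4 kb or more, such as Myh4 (-2.09), Myh7 (1.26) lies apart from the other heavy chains, and Myh3 is left out because it was listed at 0 in control 2.

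The slow genes showed no shared direction. Myh7 was at 1.00, 1.15, 1.23 and 0.810 FPKM in the knockout mice and 0.850, 2.39, 0.870 and 1.33 in the controls, from 96.2 to 230 counts a library. The log2 fold change was -0.64 (SE 0.427, edgeR unadjusted p = 0.166, adjusted p = 0.508), and without control 2 it was -0.00341. Removing the length trend raised the value of this long transcript in control 2 further and gave -1.36 (SE 0.649, edgeR unadjusted p = 0.0644). The cardiac chain Myh6, which shares reads with Myh7, was at 1.13 to 1.85 FPKM in the knockout group and 1.13 to 2.42 in the control group.

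Tnni1, the slow troponin I, rested on 3 to 31 counts a library. It was at 0.20, 1.39, 1.03 and 0.360 FPKM in the knockout mice and 0.360, 0.420, 0.390 and 0.130 in the controls, so knockout mice 2 and 3 were high and the other knockout mice lay among the controls. The fitted change was 1.03 on the log2 scale (SE 0.658, edgeR unadjusted p = 0.15, adjusted p = 0.505). With the length trend removed it was 1.41 (edgeR unadjusted p = 0.0396), in a fit where 3.23% of all genes were called higher. Without knockout 2 it was 0.49 (edgeR unadjusted p = 0.468).

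Atp2a2, the SERCA2 pump, was at 49.8, 45.3, 53.0 and 57.3 FPKM in the knockout mice and 48.6, 14.6, 33.7 and 46.2 in the controls. The knockout mice lay within a narrow range and the controls spread downwards from it, with only control 1 and control 4 inside it. This gave a log2 fold change of 0.42 (SE 0.254, edgeR unadjusted p = 0.131, adjusted p = 0.501) and the exact permutation p of the FPKM difference was 0.0857. Without control 2 the change was 0.22.

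In the first edgeR fit, without block, covariate or length correction, the 2 developmental chains had the smallest unadjusted p-values of the 10 genes. With the block, Myh1 had the smallest. Myh3, the embryonic chain, was barely detected, at 5.11, 8.09, 27.7 and 11.4 counts in the knockout mice and 4.28, 0, 4.38 and 1.38 in the controls. Knockout 3 alone was above 12 counts. By count every knockout mouse was above every control, with knockout 1 just above control 3, while at the 2 decimals of the deposited FPKM knockout 1 was level with controls 1 and 3 at 0.0400. The fitted log2 fold change was 2.27 (SE 0.753, edgeR unadjusted p = 0.0139, adjusted p = 0.498). It depends on the prior count at such depth and is no bound on the change. The exact permutation p was 0.0857 for the FPKM difference and 0.0286, the smallest that 4 mice against 4 can give, for the TMM-scaled CPM.

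Myh8, the perinatal chain, was at 0.940, 0.320, 1.18 and 0.790 FPKM in the knockout mice and 0.350, 0.210, 0.400 and 0.450 in the controls, from 20.1 to 142 counts. Of the knockout mice 3 lay above all controls, and knockout 2 lay among them. In the fit the log2 fold change was 1.07 (SE 0.367, edgeR unadjusted p = 0.0167, adjusted p = 0.498), and the exact permutation p of the FPKM difference was 0.114. Without control 2, Myh3 was at 1.99 and Myh8 at 0.97 (edgeR unadjusted p = 0.0240 and 0.0357). Without knockout 3 they were at 1.59 and 0.83 (unadjusted p = 0.0506 and 0.0572), so that no isoform then had an unadjusted p under 0.05. With the length trend removed Myh3 stayed below 0.05 (1.997 on the log2 scale, edgeR unadjusted p = 0.0199) and Myh8 did not (0.69, unadjusted p = 0.0840).

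**Figure D4:**
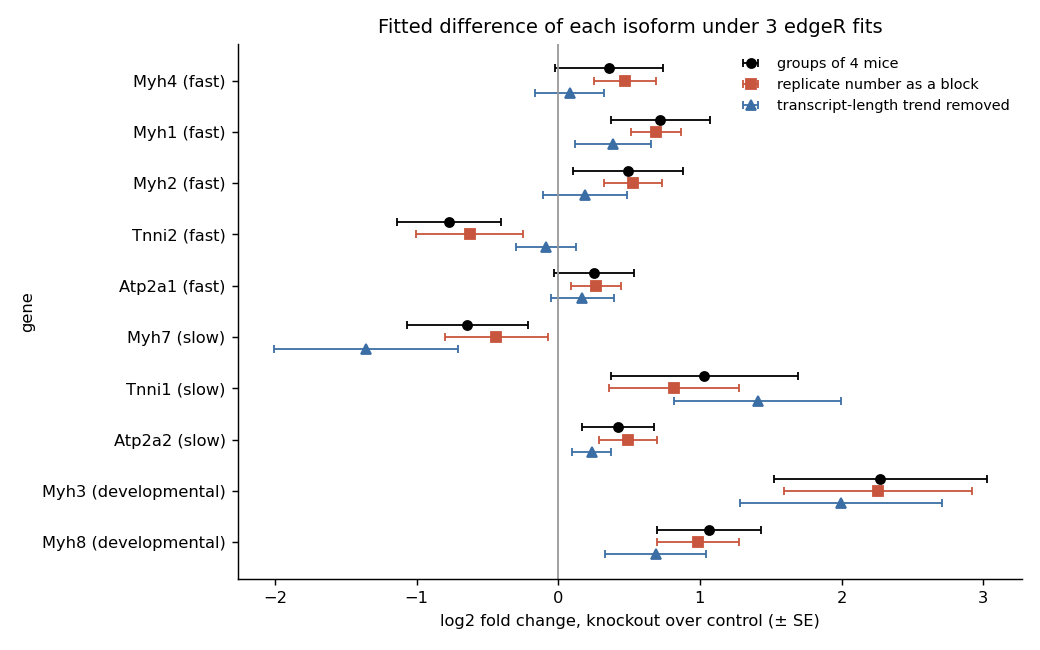
Log2 fold change of knockout over control, with its standard error, for each isoform gene in 3 edgeR fits: the groups of 4 mice, the replicate number as a block, and the transcript-length trend removed. Myh3 (2.27, 2.26 and 1.997) and Myh8 (1.07, 0.99 and 0.69) are above 0 in each, while Tnni2 moves from -0.77 to -0.08 with the length trend removed.

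The other developmental and regenerative muscle genes were set beside these chains, because Myh3 and Myh8 are used with them in new fibres. None of the 12 tested passed an adjusted p of 0.05, and 1 (Ncam1, a neural cell adhesion molecule of young and denervated fibres) had an unadjusted p under 0.05. Ncam1 was at 1.20 to 1.94 FPKM in the knockout group and 0.40 to 1.17 in the controls, without overlap, and its log2 fold change was 0.61, or 0.63 with the replicate block (edgeR unadjusted p = 0.0909). It was 0.42 without control 2 and 0.29 with the length trend removed (edgeR unadjusted p = 0.0466 and 0.132). The median log2 fold change of the 12 genes was 0.26. Knockout 3 was the highest of the 8 mice for 8 of 14 genes, these 12 and the 2 chains, namely Myl4, Actc1, Myog, Pax7, Mymk, Mymx, Myh3 and Myh8, whereas it was the highest for 11.9% of all genes tested. Without the 2 chains, which had prompted the comparison, it was 6 of 12, and some of these rest on few counts, such as Mymx with 2 to 9 a library. The rest peaked in other mice: Chrna1 and Myod1 in knockout 1, Ncam1 in knockout 2, Myf5 and Cdh15 in knockout 4, and Tnnt2 in control 2. Tnnt2 was at 5.54 FPKM in knockout 3 and 8.1 in control 2, with a log2 fold change of -0.41. Actc1, the cardiac actin of immature skeletal fibres, was at 35.9 FPKM in knockout 3 and 4.83 to 7.65 in the other 7 mice. Myl4, the embryonic myosin light chain, was at 11.3 against 3.35 to 7.73. Mymk, the membrane protein that drives myoblast fusion, was at 0.620 against 0 to 0.20, and Chrng, the fetal subunit of the acetylcholine receptor, was counted only in knockout 3, at 6 counts. The general muscle genes did not single this mouse out: the mean log2 CPM of 18 such genes was 8.25 in knockout 3 and 7.96 to 8.93 over the knockout group, against 8.10 to 8.62 over the controls. The list of developmental genes was compared by mouse after its values had been seen.

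**Figure D5:**
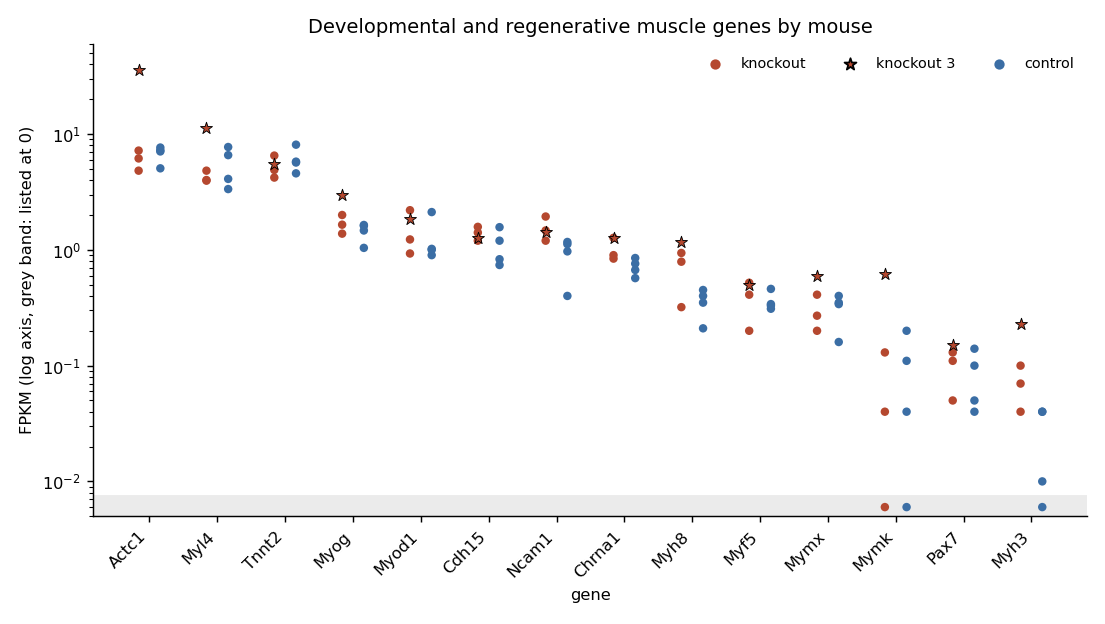
FPKM on a log axis of 14 developmental and regenerative muscle genes, Myh3 and Myh8 among them, with 1 point per mouse (red knockout, blue control) and knockout 3 as a star, and values listed at 0 drawn in the grey band. Knockout 3 is the highest mouse for 8 of the 14 genes, most clearly for Actc1 (35.9) and Mymk (0.620).

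Of the remaining fast-fibre genes none of 8 passed an adjusted p of 0.05, and 2 were lower in the knockout mice at an unadjusted p under 0.05, with a median log2 fold change of -0.58. These genes have short transcripts for the most part. The light chain Myl1 was at 1314 to 2312 FPKM in the knockout group and 1940 to 4247 in the controls (log2 fold change -0.83, SE 0.365, edgeR adjusted p = 0.498, and -0.38 without control 2). Its partner Mylpf was at 1890 to 2855 and 2275 to 5465 (-0.78, SE 0.370, adjusted p = 0.498, and -0.30 without control 2), and the fast troponin T gene Tnnt3 at 1776 to 2935 and 2407 to 3837 (-0.54, SE 0.309, adjusted p = 0.499, and -0.19 without control 2). The other gene with an unadjusted p under 0.05 was Pvalb, the calcium buffer parvalbumin, at 871 to 1158 FPKM in the knockout group and 1159 to 2136 in the controls, so that the groups met without overlap. Its log2 fold change was -0.76, and -0.34 without control 2 (edgeR unadjusted p = 0.0398). With the replicate block the changes were -0.71 for Myl1 and -0.64 for Pvalb (edgeR unadjusted p = 0.126 and 0.0887). With the length trend removed the median of the list was -0.00167 and no gene had an unadjusted p under 0.05.

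Among 11 other slow-fibre genes none passed an adjusted p of 0.05, and 1 was higher and 1 lower at an unadjusted p under 0.05. The median log2 fold change was -0.24 and, with the length trend removed, 0.12. Myoz2, a Z-disc protein that binds calcineurin, was at 31.5, 20.0, 20.9 and 22.5 FPKM in the knockout mice and 32.0, 60.01, 33.1 and 36.9 in the controls. Every knockout mouse was below every control, by a small gap between knockout 1 and control 1. For this order, also seen in Pvalb, the share of all genes is not given. At an edgeR unadjusted p under 0.05, 5.91% of all genes were called lower. The log2 fold change of Myoz2 was -1.01 (SE 0.334, edgeR unadjusted p = 0.0139, adjusted p = 0.498), -0.56 without control 2 and -0.52 with the length trend removed. Casq2, the slow and cardiac calsequestrin that stores calcium beside the pumps, was named after its values were seen. It was at 11.5, 8.10, 11.2 and 7.80 FPKM in the knockout mice and 5.47, 4.15, 5.85 and 6.94 in the controls, again without overlap. On the log2 scale the change was 0.64 (SE 0.182, edgeR unadjusted p = 0.00620, adjusted p = 0.498), 0.62 without control 2 and 0.65 with the length trend removed. The other abundant genes of the list, Csrp3 (-0.35, SE 0.447, and 0.17 without control 2) and Mybpc1 (0.27, SE 0.261), had adjusted p-values of 0.668 and 0.582 in the same edgeR fit.

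The peptides that bind the SERCA pumps were few in counts. Of 3 tested none passed an adjusted p of 0.05, and Mrln (myoregulin, an inhibitor of the pump in fast fibres) was lower at an unadjusted p under 0.05, at 10.1 to 14.8 FPKM in the knockout group and 16.3 to 34.3 in the controls (log2 fold change -1.02, SE 0.355, edgeR adjusted p = 0.498). With the length trend removed, its change was -0.27 (edgeR unadjusted p = 0.254), and without control 2 it was -0.55. Sarcolipin (Sln) was at 9.83 to 20.8 and 6.49 to 26.3 FPKM, and phospholamban (Pln) at 1.47 to 2.05 and 1.46 to 2.62. The remaining sarcomeric chains Myh7b and Myh13 were at most at 0.110 FPKM in any mouse.

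Of 17 regulators of fibre type, none had even an unadjusted p under 0.05. The most abundant were Tbx15, a T-box factor of fast glycolytic fibres, at 36.7 to 42.6 FPKM in the knockout group and 20.5 to 41.5 in the controls, Nfix, which promotes the fetal programme, at 36.5 to 46.7 and 3.67 to 43.9, and Maf, a large Maf factor, at 22.5 to 30.4 and 9.40 to 31.3. Of these, 15 had a fitted change above 0, and the median was 0.24, or -0.03 with the length trend removed. Many of these genes are also used by skin cells.

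Markers of the other cells in the cut were compared in the same fit. Among the 18 general muscle genes, 0 passed an adjusted p of 0.05 and 1 (Trdn, triadin) was lower at an unadjusted p under 0.05, with a median log2 fold change of 0.22 (-0.03 with the length trend removed) and a summed level of 5064 to 8904 FPKM in the knockout group and 5914 to 7516 in the controls. The Trdn change was -0.55, -0.57 with the replicate block (edgeR unadjusted p = 0.0719) and -0.84 with the length trend removed (unadjusted p = 0.0169). Neb and Myom2 were higher at an unadjusted p under 0.05 with the block only (0.0386 and 0.0347). In the fit with these genes as a covariate, Myh1, Tnni1, Myh3 and Myh8 were higher at an unadjusted p under 0.05, against 2.73% of all genes, and none of the isoforms passed an adjusted one. Of 6 smooth muscle genes 1 (Smtn, smoothelin) was higher at an unadjusted p under 0.05, and the sums were 138.5 to 276 and 138 to 167 FPKM. The block kept Smtn and added Lmod1, leiomodin (edgeR unadjusted p = 0.0462). None of the 6 epidermal genes (sums of 3342 to 4302 and 2867.5 to 4348 FPKM), 6 fat-cell genes (1935 to 3487 and 2034 to 3516) and 3 salivary gland genes found in the table (41.3 to 57.6 and 40.01 to 71.2) had an unadjusted p under 0.05. With the length trend removed, 1 of the fat-cell genes, Adipoq, was higher in the knockout mice (0.34 on the log2 scale, edgeR unadjusted p = 0.0127). The part of these tissues in the isoform values was not tested beyond the covariate fit.

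The genes that most resembled 3 of the isoforms were listed by the Pearson correlation of log2(FPKM + 1) over the 8 mice, among 13256 genes whose mean FPKM was 1 or more. These are descriptions, since the points share libraries and the length effect of control 2. For Myh4 those given here were Neb (r = 0.997), Nos1 (0.996), Ryr1 (0.992) and Cacna1s (0.991), which encode nebulin, the neuronal nitric oxide synthase of the fibre membrane, the calcium release channel and the voltage sensor of skeletal muscle. Their transcripts are 6.01 to 22.7 kb long, and control 2 was the lowest mouse for each. For the slow chain Myh7 they were Blvra (0.949), Mthfsl (0.942), Tamm41 (0.942), Tmem126b (0.939) and Nostrin (0.939), none of them a sarcomere gene, with transcripts of 0.809 to 1.76 kb and control 2 as the highest mouse for each. For the embryonic chain Myh3 they were Asrgl1 (0.951), Col1a2 (0.928), Cpz (0.919), Col28a1 (0.908) and Glb1 (0.907). Each of these was highest in knockout 3 and lowest in control 2, as Myh3 was, and Col1a2, a chain of type I collagen, was at 886 FPKM in knockout 3 and at 201 in control 2.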

How the data were processed

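RNA from 8 cheek samples was sequenced as single-end 50-base DNBseq reads. The authors used SOAPnuke to filter reads and HISAT to align them, and deposited 1 table of estimated counts and FPKM per gene and mouse. The counting program is not given in the sources used here, and 69.0% of the counts above 0 were not whole. Deposited group means, other scalings and fold changes or p-values of the authors' own comparison were not used.

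Counts were rounded and tested with edgeR 4.0.16 in R 4.3.3 (quasi-likelihood, TMM, at least 10 counts over the 8 mice, Benjamini-Hochberg over 17124 genes). DESeq2 1.42.0 and limma 3.58.1 on log2(FPKM + 1), with a mean FPKM of at least 0.1, were alternatives. Standard errors are the log2 fold change over the square root of F. Single FPKM values were compared by exact two-sided permutation. The length trend was a spline of 5 degrees of freedom on log transcript length, removed per mouse as an offset. The mice are separate animals of 1 genotype each. The p-values measure the spread between them. Intervals of counts cover counting error only.

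The replicate number in the labels was used as a block because the deviations of same-numbered mice from their group means correlated in all 4 pairs (r = 0.323, 0.275, 0.176 and 0.108). With the other numbers the mean r was -0.120, -0.129, -0.0171 and -0.0026. These correlations come from the same counts, and no pairing of the mice is described, so the block rests on these data alone. What the number stands for is not stated. Counts were simulated in 2 groups of 4 mice, with 200 of 16986 genes changed by 2 on the log2 scale. The edgeR step recovered 188 of them with 6 false calls, and the DESeq2 step recovered 194 with 47 false calls. The changed genes were drawn above a mean CPM that Myh3 and Tnni1 did not reach. No length effect or pairing was simulated. The recovery therefore does not speak for these 2 genes or for smaller changes.

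Sequences came from RefSeq (GRCm38.p6 promoters) and GENCODE M21 transcripts. The members and gene lists were chosen with earlier results of these data known. Named are all 10 isoforms, the 3 genes with the highest mean FPKM in each other list, any gene past the adjusted threshold, and the 5 genes most like Myh4, Myh7 and Myh3, of which 1 is not reported here, and other names were chosen after their values were seen.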

Additional observations from a re-analysis of the deposited data

Results flagged for a closer look

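In a group of 4 mice, 1 value was taken to stand apart where its gap to the nearest other exceeded Dixon's 95% critical value, which chance exceeds in about 1 in 20 groups. Of 116 groups of values examined, 9 stood apart, and 5.8 would be reached by chance alone.

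Control 2 accounted for 6 of the 9. It was at 3351 FPKM for Tnni2 against 1631 to 1887 in the other controls, at 3837 for Tnnt3 against 2407 to 2644, at 980 for Tcap against 589 to 647, and at 2.62 for Pln against 1.46 to 1.61. Its Myh7 share of the heavy chain FPKM was 1.37% against 0.132% to 0.248%, and its share from the adult fast chains was 98.5% against 99.6% to 99.8%. Tnni2, Tnnt3 and Tcap have transcripts under 1 kb, within the length range that was high in this library. Both shares compare heavy chains of nearly equal length, so removing the length trend could hardly change them. The 2 shares nearly complement each other and are not separate observations.

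Knockout 3 stood apart for Myl4, at 11.3 FPKM against 3.96 to 4.83, and for Actc1, at 35.9 against 4.83 to 7.20. Knockout 2 stood apart for the smooth muscle gene Tagln, at 126 FPKM against 47.1 to 56.8.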

How the results depend on the processing

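The fitted direction of each isoform was the same in each of the 20 alternative fits that held it (19 for Tnni1 and 17 for Myh3), with Myh4 from 0.08 to 0.64, Tnni2 from -0.93 to -0.08 and Myh7 from -1.36 to -0.00341 on the log2 scale, and the smallest adjusted p of any isoform was 0.317. Genes past an adjusted p of 0.05 numbered 0 except with the DESeq2 Wald test, which called 10. The count of isoforms with an unadjusted p under 0.05, 2 as reported, was 1 with filterByExpr (which drops Myh3 and Tnni1), 1 with limma on log2(FPKM + 1) and 1 on log2(FPKM + 0.1) (both leave out Myh3 by the FPKM filter), and 4 with DESeq2, 4 with the replicate block and 4 with the skeletal muscle covariate. For the fits that gave 4 or called 10 genes, the cause was not tested. The count ranged from 0 (without knockout 3) to 4 (without control 4) when each mouse was left out. Among the other muscle genes, the block ended the unadjusted calls of Ncam1, Pvalb, Myl1 and Trdn and added Neb, Myom2 and Lmod1. It changed no adjusted call. With the block and the length trend removed together, Tnni1 and Myh3 were the 2 isoforms with an unadjusted p under 0.05. The FPKM difference of Myh7, -0.313 as reported, ranged from -0.483 to 0.0308 when each mouse was left out and changed sign without control 2. Depth limited Myh3 and Tnni1, with at most 27.7 and 31 counts in any library. The genotype differences in Myh1 per Myh4, fast myosin per Myh7, Tnni2 per Tnni1 and Atp2a1 per Atp2a2 moved by less than 1 SD between the mice, control 2 included. The log2 difference of fast myosin per Myh7, 0.97, was 0.24 without control 2, and that of Atp2a1 per Atp2a2, -0.22, was -0.09 with the length trend removed.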
